A study of Homo sapiens with 17 samples.

Results

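Described here are 10 genes of energy metabolism in HEK293T cells, 9 that encode enzymes of glycolysis or lactate dehydrogenase and 1, CKB, that encodes creatine kinase B. They were taken by symbol (ALDOA, ENO1, GAPDH, LDHA, LDHB, PGK1, PKM, TPI1, GPI and CKB) from a table of 18869 genes, and all 10 were found. HEK293T is an established line from human embryonic kidney. The cells carried a lentiviral construct that doxycycline switches on. In RPS2-STAMP cells it encodes the editing enzyme APOBEC1, which turns C into U in RNA, joined to the small-subunit ribosomal protein RPS2. In Control-STAMP cells it encodes APOBEC1 alone. Both lines received 50 ng/ml doxycycline for 24 h and were crosslinked with 0.1% formaldehyde, and RNA was sequenced from the Input and from immunoprecipitates (IPs) of PABPN, the nuclear poly(A)-binding protein, and of PABPC, the cytoplasmic one. By the paper only cytoplasm was taken, which the sample labels leave unsaid. Values from the PABPC IP and the PABPN IP are also given below as values with PABPC and with PABPN. RPS2-STAMP gave 3 samples of each of the 3 fractions, and Control-STAMP gave 3 Input, 3 PABPN IP and 2 PABPC IP samples, 17 in all.

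Glycolysis splits glucose into pyruvate in the cytosol. GPI, ALDOA and TPI1 act in its upper steps, where sugar phosphates are rearranged and split, and GAPDH, PGK1, ENO1 and PKM act in its lower steps, where ATP is made. Lactate dehydrogenase, built from LDHA and LDHB subunits, interconverts pyruvate and lactate, and creatine kinase B passes phosphate between ATP and creatine. These messages are translated by cytosolic ribosomes, so RPS2-STAMP can reach them while they are read.

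For each gene and fraction the table holds 1 normalized EPKM, a rate of edits scaled by length and by library size with the control subtracted, and 1 average TPM, a level of RNA per length. Each value is pooled over replicates, so no value below has an SD, an n or a p, and no difference has a replicate check. Read and edit counts are not in the table, so the depth behind each value is unknown. Each library pools many cells, and less RNA in every cell cannot be told apart from RNA missing in some. The background is the 9607 protein-coding genes whose TPM reached 5 in each IP, called coding genes here, and all 10 genes passed that filter. A second reference, the tenth of coding genes with the highest Input TPM (961 genes), was used because all 10 lie in it.

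The label HEK293T was checked on a few markers. VIM, NEFM and PAX2 were picked as genes that the line expresses. VIM, an intermediate filament gene, had a TPM of 184 in the Input, and NEFM, a neurofilament gene, had 9. PAX2, a kidney transcription factor, was low at 0.797, so this marker did not bear the label out. ALB, HBB, CD3E and PTPRC, markers of liver, red cells, T cells and leukocytes, had no entry in the table.

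An edit needs a C, so stretches of coding sequence are shown for 4 of the genes on which the comparisons below turn, with each C in capitals. They are the first 60 bases of the longest coding exon in the canonical transcript, from GENCODE release 44 on hg38, written along the messenger with t for u. CKB (chr14:103522434-103522493, minus strand) reads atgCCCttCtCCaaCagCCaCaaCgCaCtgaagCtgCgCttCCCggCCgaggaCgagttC and holds 23 C. GAPDH (chr12:6537584-6537643, plus strand) reads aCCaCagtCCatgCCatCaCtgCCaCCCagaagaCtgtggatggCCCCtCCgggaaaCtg and holds 22 C. The stretch of LDHA (chr11:18400837-18400896, plus strand) is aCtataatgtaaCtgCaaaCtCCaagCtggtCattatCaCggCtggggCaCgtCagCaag, with 15 C. That of LDHB (chr12:21644049-21644108, minus strand) is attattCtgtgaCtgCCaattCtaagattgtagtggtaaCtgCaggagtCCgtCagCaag, with 11 C. Laid base on base, the LDHA and LDHB stretches are identical at 41 of 60 bases and share 8 C. Which of these C were edited is not in the deposited table.

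Over the whole coding sequence, C made up 33.0% of bases in CKB and 17.7% in LDHB, the ends of the range for the 10 genes. The median was 25.4% for the 10 genes and also 25.4% for the 9601 coding genes with a canonical coding sequence, whose quartiles were 21.1% and 30.1%. LDHA stood at 18.7%, PGK1 at 21.4%, GAPDH at 29.0% and ALDOA at 30.9%. EPKM is scaled by length and not by the number of C, and the part of base composition in the values was not tested.

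The 10 genes lie on 8 chromosomes, with TPI1, GAPDH and LDHB together on chromosome 12 of hg38. CKB (ENSG00000166165) spans 103519667 to 103522833 of chromosome 14, on the minus strand, with 8 exons in its canonical transcript. LDHA (ENSG00000134333) spans 18394560 to 18408425 of chromosome 11 on the plus strand, and LDHB (ENSG00000111716) spans 21635342 to 21757857 of chromosome 12 on the minus strand, each with 8 exons in the canonical transcript. In release 44, exons of GPI, ALDOA and LDHB are overlapped on the same strand by other gene models over 49.9%, 98.9% and 88.3% of their length. The model over ALDOA, ENSG00000285043, had entries of its own, with an EPKM of 0.187 in the Input, 0.0973 with PABPC and 0 with PABPN. The model over GPI, ENSG00000266953, had an Input EPKM of 0.0885 and no TPM, and the table has no entry for the one over LDHB. For read counting the authors left out readthrough transcripts and stretches shared between genes, in an annotation built on release 34, whose overlaps may differ. The paper does not say that edits were assigned with that annotation. Both the EPKM and the TPM of these 3 genes are thus less certain than those of CKB, PKM and LDHA, whose exons no other gene overlaps in release 44.

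In the Input, where no poly(A)-binding protein was selected, all 10 genes were edited above the control and were among the more edited coding genes. Their median EPKM was 0.329, against 0.0273 for coding genes and 0.177 for the tenth with the most RNA. CKB led with 1.13, a value that 11 of the 9607 coding genes exceeded. LDHA was lowest at 0.0875, still above 79.3% of coding genes.

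**Figure D1:**
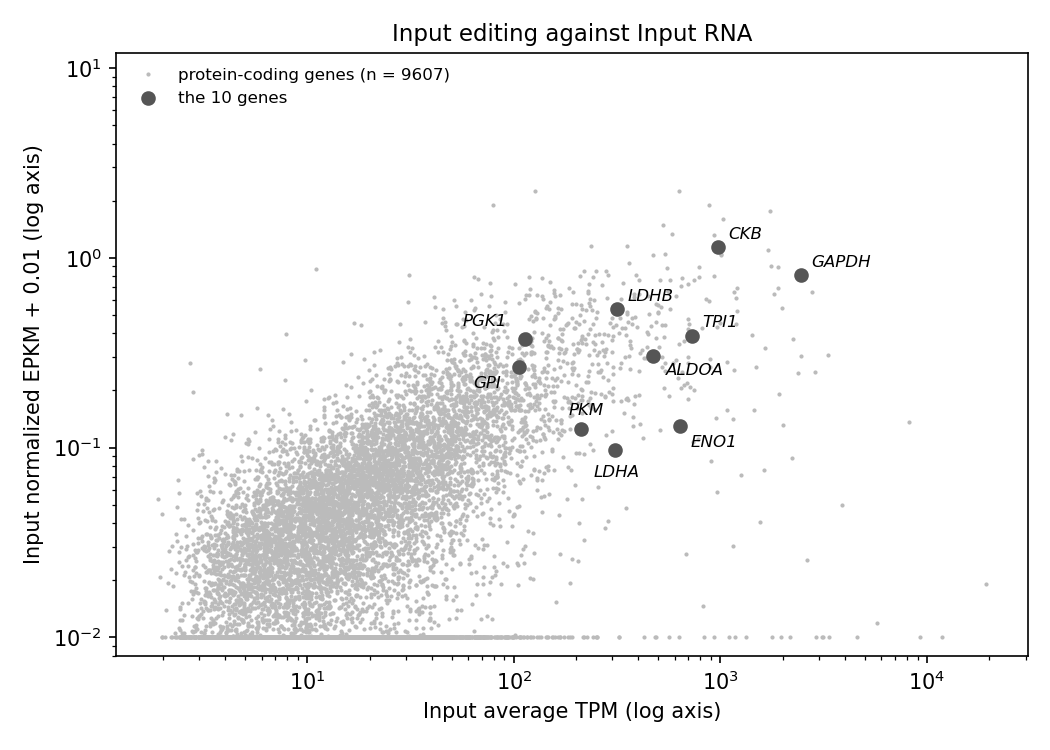
Input normalized EPKM plus 0.01 (vertical, log axis) against Input average TPM (horizontal, log axis) for 9607 protein-coding genes (grey) and the 10 genes (dark). The 10 genes lie between 106 and 2463 TPM, with ENO1 and LDHA low and PGK1 and GPI high in EPKM for their TPM.

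Abundance and editing did not run in the same order, as the plot of Input editing against Input RNA shows. GAPDH, the enzyme that oxidises glyceraldehyde 3-phosphate, had the highest Input TPM of the 10 at 2463 and the second EPKM at 0.802. CKB had a TPM of 971, which is 0.394 times that of GAPDH, with 1.41 times its EPKM. ENO1, the enolase of most tissues, had a TPM of 639 and an EPKM of 0.120, whereas TPI1, the triose phosphate isomerase, had 729 and 0.378. The lactate dehydrogenase subunits had like amounts of RNA and unlike editing. LDHA and LDHB had Input TPM of 308 and 316, and their EPKM was 0.0875 and 0.526, so that LDHB was edited 6.01 times as much at 1.03 times the TPM. Other gene models overlap 88.3% of the exon length of LDHB on the same strand and no exon of LDHA. Both values of LDHB are therefore the less certain ones. In the PABPC IP the ratio of LDHB to LDHA was 1.26 in EPKM and 1.34 in TPM.

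EPKM divided by TPM, a ratio chosen after the values were seen, puts editing beside the amount of RNA. Per 1000 TPM of Input RNA, PGK1 had 3.22 EPKM, GPI 2.41, LDHB 1.66 and CKB 1.16. ENO1 had 0.188, LDHA 0.284 and GAPDH 0.326. The median was 0.584 for the 10 genes, below the 1.61 of coding genes and the 1.08 of the tenth with the most RNA. On this ratio PGK1, GPI and LDHB were above the coding median and the other 7 were below it.

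Between the fractions, the 10 genes were mostly edited most in the Input and least in the PABPN IP. Median EPKM was 0.329 in the Input, 0.152 with PABPC and 0.0513 with PABPN. For coding genes the PABPC IP had the highest median, with 0.0501 against 0.0273 in the Input and 0.0334 with PABPN. Abundant messages had the order of the 10 genes, with medians of 0.177, 0.134 and 0.0703 in the tenth with the most RNA and of 0.440, 0.437 and 0.146 in 79 cytosolic ribosomal protein genes, a reference set of abundant translated messages. The order Input, PABPC IP, PABPN IP from high to low held for GPI, TPI1, GAPDH, ENO1, LDHB and CKB, that is 6 of 10, against 13.8% of coding genes, 35.9% of the tenth with the most RNA and 49.4% of ribosomal protein genes. In ALDOA and PGK1 the value with PABPC was the lowest of the 3, and in PKM and LDHA it was the highest.

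**Figure D2:**
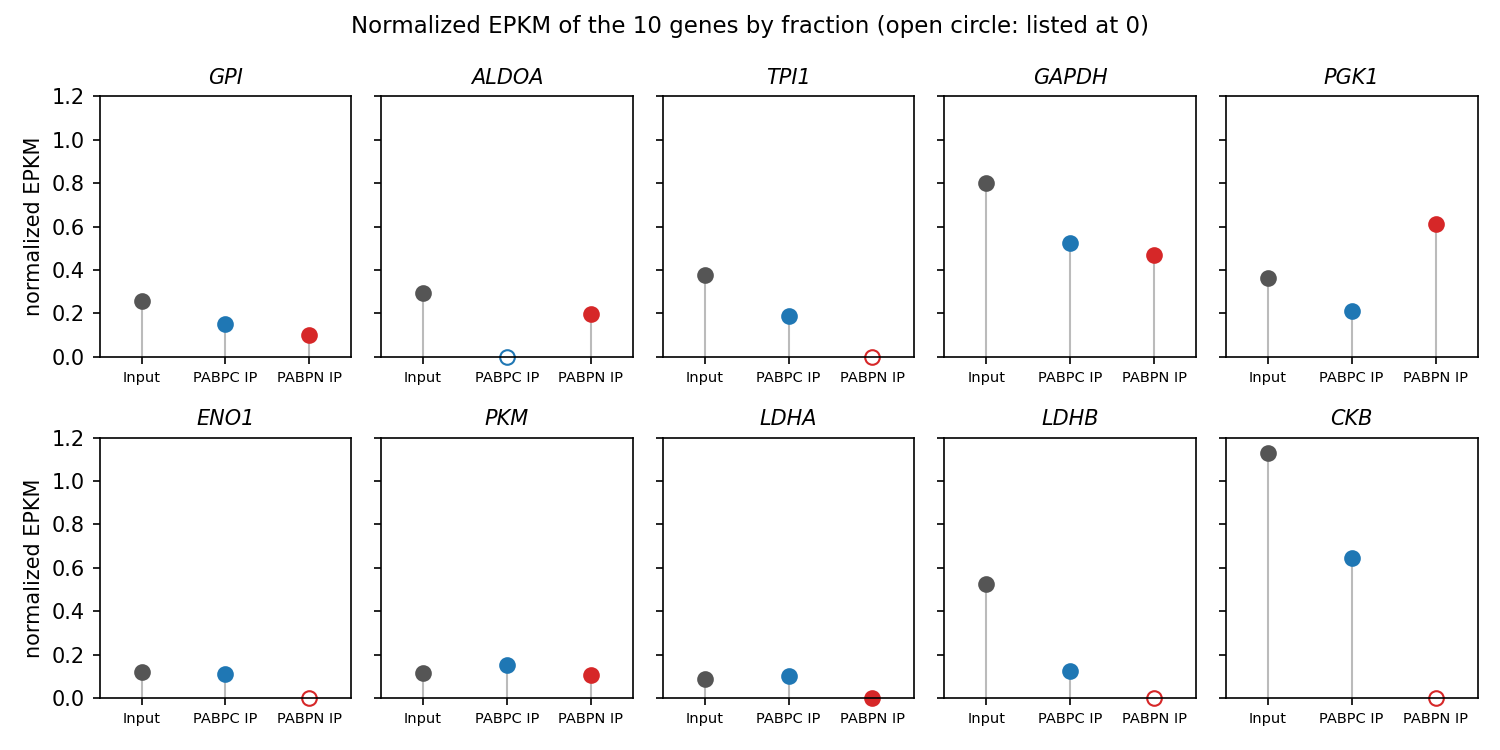
Normalized EPKM (vertical) of each of the 10 genes in the Input and both IPs, 1 pooled value per fraction; open circles are values listed at 0. CKB, LDHB, TPI1 and ENO1 are at 0 in the PABPN IP, and PGK1 is highest there at 0.614.

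Among the upper-step enzymes, GPI, which turns glucose 6-phosphate into fructose 6-phosphate, had an EPKM of 0.256 in the Input, 0.150 with PABPC and 0.102 with PABPN. ALDOA, the aldolase that splits the sugar, had 0.294 in the Input and 0.196 with PABPN, and with PABPC it was listed at 0. It was the only one of the 10 at 0 there, at a PABPC IP TPM of 987. TPI1 showed the reverse, with 0.378 in the Input, 0.189 with PABPC and a listing at 0 with PABPN, at 690 TPM.

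Among the lower-step enzymes, GAPDH kept a high EPKM in all 3 fractions, with 0.802 in the Input, 0.526 with PABPC and 0.467 with PABPN. PGK1, the kinase of the first ATP-yielding step, had 0.364 in the Input, 0.210 with PABPC and 0.614 with PABPN. Its PABPN IP value was exceeded by 9 of the 9607 coding genes, at a TPM of 101. PGK1 was thus the single gene of the 10 with more editing in the PABPN IP than in the Input. ENO1 had 0.120, 0.112 and a listing at 0 in the Input, with PABPC and with PABPN. PKM, the pyruvate kinase gene that closes the pathway, varied least, with 0.115, 0.154 and 0.104 in the same order.

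LDHA had an EPKM of 0.0875 in the Input and 0.0998 with PABPC, and 0.000199 with PABPN. LDHB had 0.526 in the Input and 0.125 with PABPC, and with PABPN it was listed at 0. With PABPN, then, next to no EPKM was listed for the messages of either subunit. CKB, the most edited of the 10 in the Input and with PABPC (1.13 and 0.644), was listed at 0 with PABPN, where its TPM was 1156. Of the 2605 coding genes listed at 0 in the PABPN IP, CKB was number 2 by Input EPKM, LDHB number 15 and TPI1 number 30.

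With PABPN 4 of the 10 were listed at 0, against 27.1% of coding genes and 22.8% of the tenth with the most RNA. With PABPC 1 of 10 was at 0, against 17.4% of coding genes and 11.1% of the tenth, and in the Input none was, against 21.9% and 9.16%.

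Comparing the PABPC IP with the PABPN IP asks whether editing differs between messages bound by the cytoplasmic and by the nuclear protein. On the log2(EPKM + 0.01) scale, 5 of 10 genes were higher with PABPC by 2-fold or more (TPI1, ENO1, LDHA, LDHB and CKB), against 36.3% of coding genes, 43.5% of the tenth with the most RNA and 65.8% of ribosomal protein genes. ALDOA and PGK1 were at least 2-fold lower, 2 of 10, near the 21.1% of coding genes, with 13.8% in the tenth. The 5 higher genes are the 4 listed at 0 in the PABPN IP and LDHA. The others had like EPKM in both IPs, with PABPC values 1.46 times those with PABPN for GPI, 1.13 times for GAPDH and 1.48 times for PKM. Their TPM with PABPC was 1.19, 2.66 and 1.52 times that with PABPN in the same order, so per RNA they were less alike. The median log2 difference was 1.98, against 0.32 for coding genes, 0.66 for the tenth with the most RNA and 1.46 for ribosomal protein genes. It was 0.66 with a pseudocount of 0.1 and 0.51 among genes above 0 in both IPs, the latter an alternative chosen after seeing the data.

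Against the Input, editing in the PABPC IP was at least 2-fold higher for none of the 10, where 35.1% of coding genes and 15.6% of the tenth with the most RNA were. It was at least 2-fold lower for ALDOA and LDHB, 2 of 10, near the 19.5% of coding genes and below the 35.3% of the tenth with the most RNA. In the PABPN IP none was at least 2-fold higher than in the Input, against 28.4% of coding genes and 8.84% of the tenth with the most RNA. GPI, TPI1, ENO1, LDHA, LDHB and CKB were at least 2-fold lower, 6 of 10, against 29.6% of coding genes and 57.0% of the tenth with the most RNA. These comparisons share the Input values, so a high Input EPKM lowers both.

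The RNA itself was distributed between the fractions in a more uniform way. Over coding genes, the median log2 ratio of average TPM was 0.95 for the PABPC IP against the Input, 1.10 for the PABPN IP against the Input and -0.19 for the PABPC IP against the PABPN IP. Ratios below are relative to these medians, and a gene was counted when it lay 0.5 or more to either side. TPM is the sum of an exonic and an intronic TPM, as the authors computed it, and which samples entered each average is not known. The 10 genes together made up 1.25% of the summed TPM of protein-coding genes in the Input, 1.33% with PABPC and 0.615% with PABPN.

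**Figure D3:**
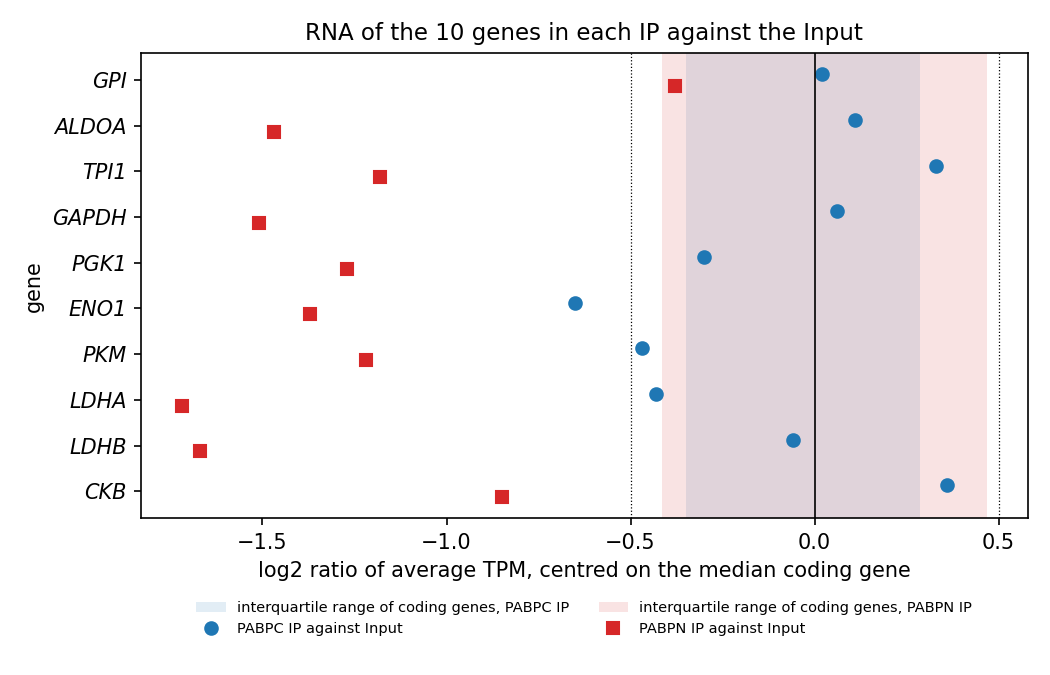
Log2 ratio of average TPM against the Input (horizontal), centred on the median coding gene, for the 10 genes (vertical) in the PABPC IP (circles) and the PABPN IP (squares). Shaded bands span the interquartile range of 9607 coding genes and dotted lines mark 0.5 to either side; all squares are left of 0, from -1.72 for LDHA to -0.38 for GPI, although before centring GPI and CKB had more TPM in the PABPN IP than in the Input.

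In the PABPN IP against the Input, 9 of 10 genes were 0.5 or more below the median coding gene. So were 20.6% of coding genes, 66.2% of the tenth with the most RNA and 73 of 79 ribosomal protein genes. None of the 10 was above, against 23.7% of coding genes, 3.02% of the tenth and 0 of 79 ribosomal protein genes. LDHA was lowest at -1.72, with LDHB at -1.67, GAPDH at -1.51 and ALDOA at -1.47. CKB stood at -0.85 and GPI, the exception, at -0.38. The median was -1.32, against -0.71 for the tenth with the most RNA and -1.18 for the 79 ribosomal protein genes. Without the centring only LDHA and LDHB were 0.5 or more lower than in the Input and GPI was higher, 2 and 1 of 10. The shares lower and higher were then 0.583% and 84.1% of coding genes, 5.52% and 41.3% of the tenth with the most RNA, and 6.33% and 12.7% of ribosomal protein genes. LDHA, for example, had a TPM of 308 in the Input and 201 with PABPN.

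In the PABPC IP against the Input, none of the 10 lay 0.5 or more above the median coding gene and ENO1 lay below it at -0.65, 1 of 10. The shares of coding genes were 9.02% above and 17.4% below. The median of the 10 was -0.02. Its sign changed, to 0.06, when the centring used protein-coding genes from 1 TPM up in each IP. Without centring the sign changed as well, to 0.93, and 8 of 10, 80.2% of coding genes and 88.9% of the tenth with the most RNA were higher. CKB and TPI1 were the highest, at 0.36 and 0.33, and PKM and LDHA were next to ENO1 at -0.47 and -0.43. Other abundant messages stood higher, with a median of 0.35 and 31.8% above 0.5 in the tenth with the most RNA. Of the 79 ribosomal protein genes, 71 were above 0.5, with a median of 0.68.

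Set directly against each other, the IPs differed for all 10 genes in one direction. Relative to the median coding gene, RNA was higher with PABPC by 0.5 or more for 9 of 10. It was so for 29.9% of coding genes, 79.6% of the tenth with the most RNA and 79 of 79 ribosomal protein genes. RNA was lower for none of the 10, against 31.1% of coding genes, 4.58% of the tenth and 0 of 79 ribosomal protein genes. The median was 1.28, against 1.02 for the tenth and 1.91 for ribosomal protein genes. The ratio was 1.66 for LDHB, 1.61 for ALDOA, 1.60 for GAPDH and 1.55 for TPI1. GPI was lowest at 0.44, below ENO1 at 0.77 and PKM at 0.79. In TPM, LDHB had 589 with PABPC and 213 with PABPN, and GPI had 209 and 176. Without centring, 9 of 10 were still 0.5 or more higher with PABPC, against 22.7% of coding genes, 71.0% of the tenth with the most RNA and 98.7% of ribosomal protein genes.

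**Figure D4:**
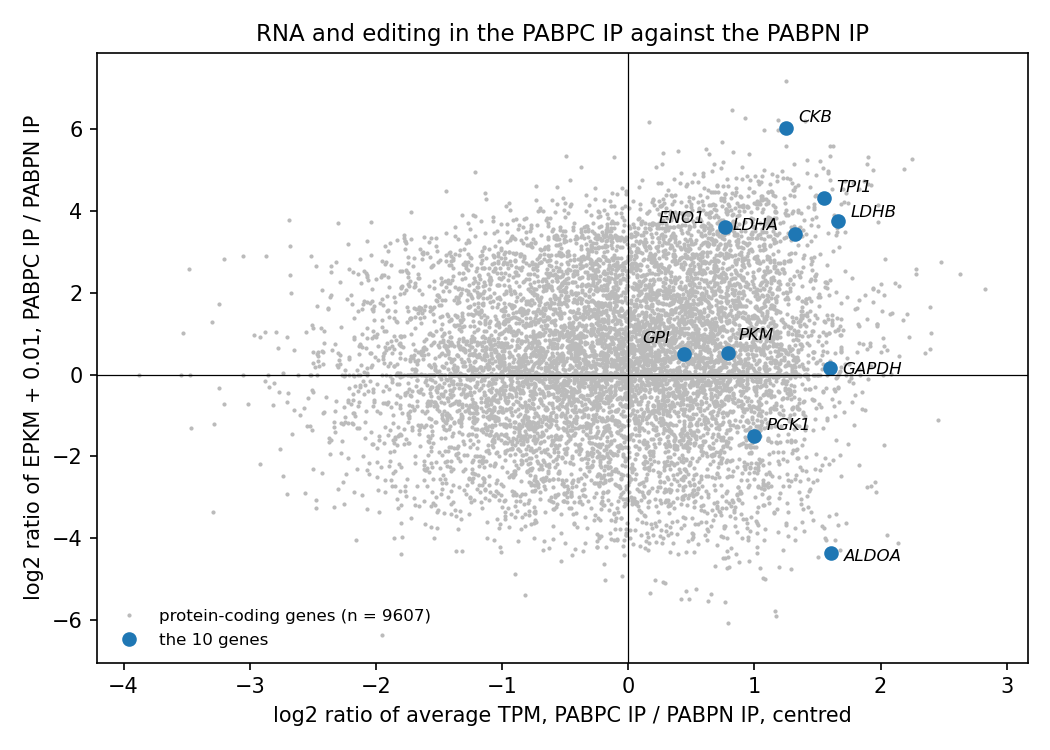
Log2 ratio of normalized EPKM plus 0.01 (vertical) against the centred log2 ratio of average TPM (horizontal), both PABPC IP over PABPN IP, for 9607 protein-coding genes (grey) and the 10 genes (blue). All 10 lie right of 0 in RNA, while ALDOA and PGK1 lie below 0 in editing. The heights of ALDOA, CKB, TPI1, LDHB and ENO1, each listed at 0 in an IP, are set by the pseudocount, as is that of LDHA, at 0.000199 in the PABPN IP.

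The plot of both ratios between the IPs shows genes with like RNA ratios and unlike editing. ALDOA and TPI1, neighbours in the pathway with RNA ratios of 1.61 and 1.55, were listed at 0 in opposite IPs, ALDOA with PABPC and TPI1 with PABPN. The ALDOA values are less certain, since other gene models overlap 98.9% of its exon length on the same strand. One of them, ENSG00000285043, had an EPKM of 0.0973 with PABPC and 0 with PABPN, at TPM of 8.12 and 12.2. How edits were shared between these models is not known. PGK1 had an RNA ratio of 1.00 and a log2 editing ratio of -1.50. RNA thus stood on the side of PABPC for all 10 genes, with and without centring, and editing did so for 8. With centring, RNA did so for 90.9% of the tenth with the most RNA, and editing did so for 66.6% of it and 56.4% of coding genes, so both counts are near those of abundant messages. Per 1000 TPM, the median EPKM of the 10 genes was 0.219 with PABPC and 0.126 with PABPN. On that ratio GAPDH (0.106 with PABPC and 0.251 with PABPN) and PKM (0.523 and 0.535) were lower with PABPC, as were ALDOA and PGK1. GPI, TPI1, ENO1, LDHA, LDHB and CKB stayed higher with PABPC.

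Other genes of the pathway came from a list of 52 symbols, of which 40 were in the table and 33 passed the TPM filter. Of the 33, 16 were 0.5 or more higher in RNA with PABPC than with PABPN (29.9% of coding genes) and 5 were lower (31.1%). Against the Input, 8 were lower with PABPC (17.4%) and 1 was higher (9.02%). With PABPN, 17 were lower (20.6%) and 2 higher (23.7%). Without centring no pathway gene was 0.5 or more lower in either IP than in the Input, and 24 and 18 were higher with PABPC and with PABPN. Of coding genes, 0.854% were then lower and 80.2% higher with PABPC, and 0.583% lower and 84.1% higher with PABPN. Between the IPs without centring, 15 pathway genes were higher (22.7% of coding genes) and 8 lower (37.2%) in the PABPC IP.

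**Figure D5:**
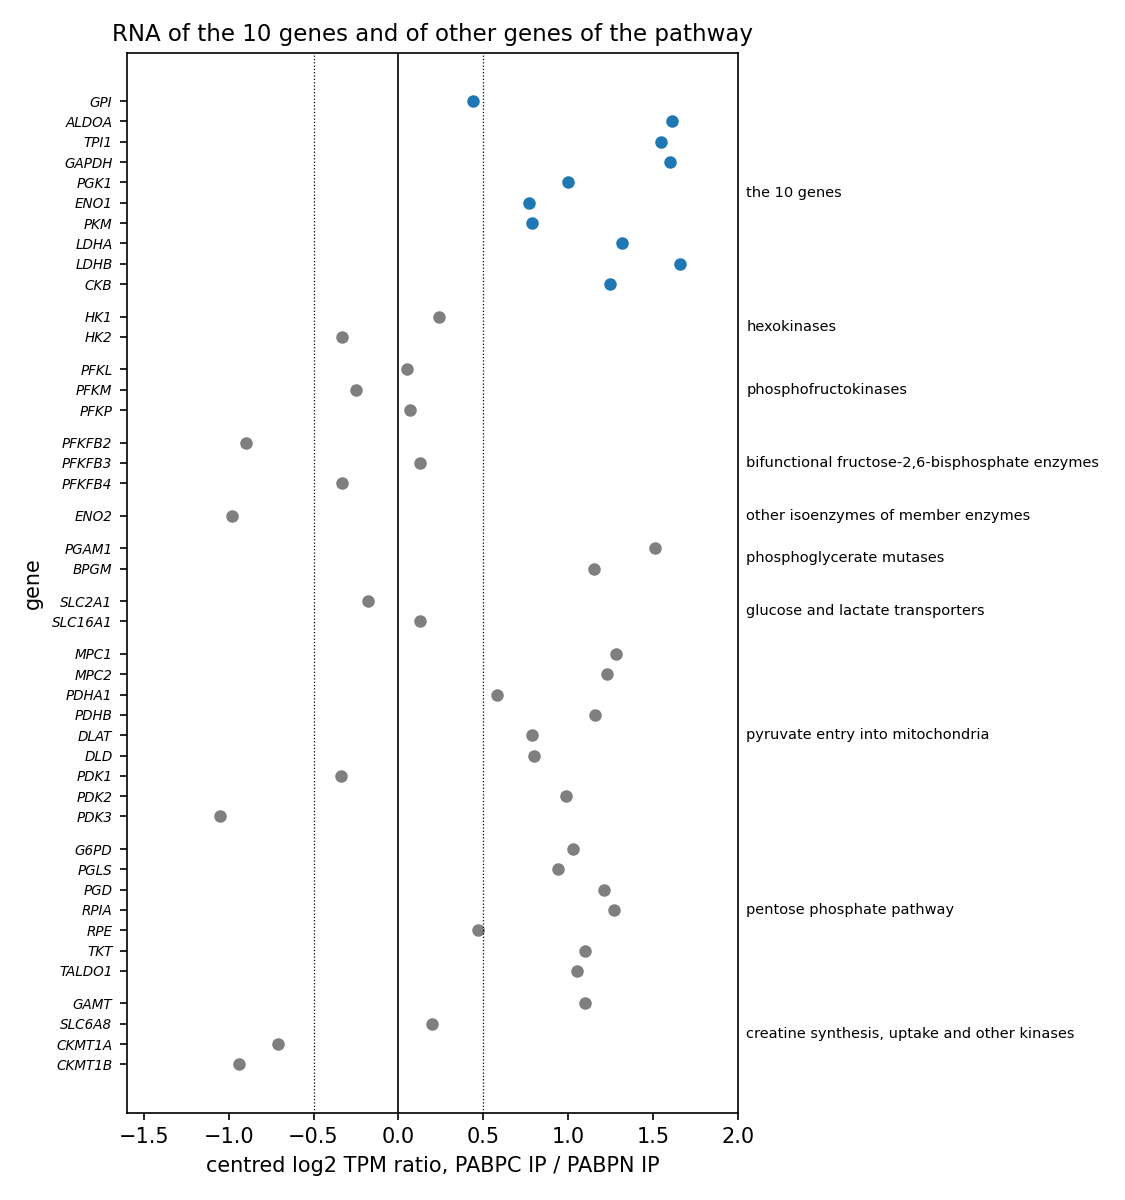
Centred log2 ratio of average TPM, PABPC IP over PABPN IP (horizontal), for the 10 genes (blue) and 33 other genes of the pathway (grey), grouped by role (vertical); dotted lines mark 0.5 to either side. The mutases and most genes of the pentose phosphate pathway lie right of 0.5, and the hexokinases and phosphofructokinases lie between the lines, which without centring holds for all of them except HK2.

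PGAM1, the phosphoglycerate mutase between PGK1 and ENO1, had the highest ratio of the 33 at 1.51, with TPM of 285 in the Input, 655 with PABPC and 262 with PABPN. The hexokinases HK1 and HK2, which trap glucose in the cell, stood at 0.24 and -0.33. The phosphofructokinases PFKL, PFKM and PFKP, which commit sugar to glycolysis, stood at 0.05, -0.25 and 0.07. Neither group had a gene past 0.5 on the centred scale. Their Input TPM ran from 16.2 for PFKM to 27.8 for HK1, and BPGM, the mutase that makes 2,3-bisphosphoglycerate, had 26.3 with a ratio of 1.15.

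In the pentose phosphate pathway, which draws glucose 6-phosphate away from glycolysis, 6 of 7 genes were higher by 0.5 or more in the PABPC IP (29.9% of coding genes), with RPIA at 1.27, PGD at 1.21 and RPE, the exception, at 0.47. PGD had the lowest ratio of the 33 for the PABPN IP against the Input, -1.43. Among genes for the entry of pyruvate into mitochondria, the carrier subunits MPC1 and MPC2 stood at 1.28 and 1.23, and PDK3, a kinase that inhibits pyruvate dehydrogenase, had the lowest ratio of the 33 at -1.05. For the PABPC IP against the Input, GAMT, an enzyme of creatine synthesis, was highest at 0.64 and HK2 lowest at -0.86. PFKFB2, which sets the level of fructose 2,6-bisphosphate, was highest for the PABPN IP against the Input at 0.79.

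Some isoenzymes stood apart from the members they resemble in RNA. LDHC, the testis lactate dehydrogenase subunit, was on the same side of 0 as LDHA and LDHB, at 0.60 between the IPs against 1.32 and 1.66, and it missed the TPM filter with 4 in the PABPN IP. ENO2, the neuronal enolase, stood at -0.98 between the IPs where ENO1 stood at 0.77, with TPM of 7 in the Input, 10.5 with PABPC and 24.4 with PABPN. ENO3, the muscle enolase, missed the TPM filter with 3.67 with PABPC and had 10.5 with PABPN. In EPKM, ENO3 was listed at 0 with PABPC and had 0.143 with PABPN, whereas ENO1 was listed at 0 with PABPN. CKMT1A and CKMT1B, which encode a mitochondrial creatine kinase, stood at -0.71 and -0.94 where CKB stood at 1.25. They are near-identical copies of each other, so their separate values are uncertain.

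In editing, 19 of the 33 pathway genes were higher with PABPC than with PABPN by 2-fold or more (36.3% of coding genes) and 2 were lower (21.1%). Against the Input, 5 were higher (35.1%) and 9 lower (19.5%) with PABPC. With PABPN, 4 were higher (28.4%) and 18 lower (29.6%). CKMT1B was the highest between the IPs, with an EPKM of 0.152 with PABPC and a listing at 0 with PABPN, and PFKFB3 the lowest, at 0 and 0.178. PFKL was listed at 0 in the Input and had 0.193 with PABPC. PDK2, another kinase of pyruvate dehydrogenase, had 0.100 in the Input and 0.00171 with PABPC. MPC1 had an Input EPKM of 0.440, the highest of the 33, and 0.00339 in the PABPN IP. PDHA1, a subunit of pyruvate dehydrogenase, ran the other way, from 0.0194 in the Input to 0.138 in the PABPN IP. PGAM1 followed the common order of the 10 genes, with 0.382, 0.137 and 0.0362 in the Input, with PABPC and with PABPN.

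Several of the 10 genes have processed copies elsewhere in the genome whose reads counting could mix with theirs. By name, release 44 holds 92 such copies, 65 of them of GAPDH, and 9 were in the table. The most abundant in the Input and with PABPC was TPI1P1, with TPM of 7.41 in the Input, 19.1 with PABPC and 7.75 with PABPN and EPKM of 0.192, 0.181 and 0.167 in the same order. TPI1 itself was listed at 0 in the PABPN IP. GAPDHP1 had TPM of 4.62, 12.5 and 4.17 and EPKM of 0.0861, 0.422 and 0.331. Centred RNA ratios between the IPs were 1.44 for TPI1P1 and 1.67 for GAPDHP1, next to 1.55 for TPI1 and 1.60 for GAPDH. Other copies of the same genes went the other way, with TPI1P2 at -1.10 (TPM of 3.28 with PABPC and 8.75 with PABPN) and GAPDHP21 at -1.81 (1.16 and 6.17). ENO1-AS1, a gene on the opposite strand that overlaps ENO1, was listed at 0 in EPKM in all 3 fractions and had TPM of 3.34, 4.41 and 14.4. Values of copies and of overlapping genes are uncertain for this reason.

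Likeness to other genes was measured as the Euclidean distance over 6 values, 3 of log2 EPKM and 3 of log2 TPM with pseudocounts of 0.01 and 0.5. Nearest to the median profile of the 10 genes was PGAM1 at a distance of 0.69, followed by EIF3L at 0.81, RAB1B at 0.89, MRPL37 at 0.92 and SUMO3 at 1.08. Each of these was nearer to it than any of the 10, of which LDHB was nearest at 1.97 and GAPDH farthest at 6.47. CKB alone was most like RPS6 at 1.39, RPL10A at 1.63 and RPS12 at 2.21, which encode ribosomal proteins and were all listed at 0 in the PABPN IP. RPS6 had an Input EPKM of 0.517, less than the 1.13 of CKB, at an Input TPM of 1197.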

How the data were processed

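STAR alignment to hg38, counting with featureCounts 2.0.2 (submitters' processing notes) and the calling of C-to-U edits were done by the authors. The deposited normalized EPKM is a signal, 1 per gene and fraction, from which the authors had subtracted editing in Control-STAMP cells. Whether the control came from the same fraction, how replicates were pooled and how values below 0 were treated are not stated. The deposited average TPM adds exonic and intronic TPM, and the samples in each average are not named.

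Computed here were log2 ratios with pseudocounts of 0.01 EPKM and 0.5 TPM, TPM ratios centred on the median of protein-coding genes with at least 5 TPM in both IPs, counts past 2-fold (EPKM) or 0.5 (TPM), medians and ranks. No test was run. Members and lists were chosen with earlier results of these data known. Genes named were the members, isoenzymes, the highest and lowest pathway genes per comparison, the 5 nearest to the members' median and the 3 nearest to CKB, the most abundant copies, and examples of each group. Python 3.11.15, NumPy 2.4.6, pandas 2.3.3 and matplotlib 3.10.9 were used.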

Additional observations from a re-analysis of the deposited data

How the results depend on the processing

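No paired analysis was possible because each deposited column is pooled over replicates, and neither the replicate block nor leaving out a replicate was run. The values carry no spread, the table gives no counts of edits, and the subtracted control values are not given, so a listing at 0 does not tell an absence of edits from edits at the level of the control. The cause of the changes below was not tested.

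Without a threshold, 8 genes in place of 5 were higher in editing with PABPC than with PABPN (56.4% of coding genes). With PABPC, 2 in place of 0 were higher than in the Input (57.3%) and 8 in place of 2 lower (37.4%). With PABPN, 1 in place of 0 was higher than in the Input (45.2%). In the tenth with the most RNA these shares were 66.6%, 35%, 62.6% and 18.5% in the same order. With a pseudocount of 0.1 EPKM, the median log2 difference was 0.66 in place of 1.98 between the IPs, -0.55 in place of -0.75 for the PABPC IP against the Input and -0.86 in place of -2.25 for the PABPN IP against the Input. The mean over genes gave 1.65, -1.03 and -2.68 in the same order, and genes above 0 in both fractions, chosen after seeing the data, gave 0.51, -0.74 and -0.67.

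Without centring, the median RNA ratio was 1.10 in place of 1.28 between the IPs, 0.93 in place of -0.02 for the PABPC IP against the Input, a change of sign, and -0.22 in place of -1.32 for the PABPN IP against the Input. The PABPC IP was then higher for 8 genes in place of 0 and lower for 0 in place of 1, and the PABPN IP higher for 1 in place of 0 and lower for 2 in place of 9. Centring on protein-coding genes with at least 1 TPM in both IPs gave 1.41, 0.06 (a change of sign) and -1.38. A pseudocount of 1 TPM gave 0.01 for the PABPC IP against the Input, a change of sign, and -1.29 for the PABPN IP. With a threshold of 1, 0 in place of 1 were lower with PABPC than in the Input. The other counts of members stayed within a factor of 1.5, and with every listed protein-coding gene the background shares for editing ran from 15.8% to 30.8%.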
